A study of Homo sapiens with 12 samples.

Results

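The genes described here encode the JUN and FOS subunits of the transcription factor AP-1: JUN, JUNB and JUND, and FOS, FOSB, FOSL1 and FOSL2. They were chosen by gene symbol, 7 of the 43236 symbols in the count files, and all 7 were among the 15979 genes that passed the filter on low counts. The cells are MNNG/HOS, labelled HOS-MNNG, a human osteosarcoma cell line derived from HOS cells by chemical transformation. The 12 mRNA sequencing libraries form 4 groups of 3: cells given DMSO, the solvent control, for 6 h or 24 h, and cells given NXP800, a small oral molecule that the study tests in osteosarcoma, for 6 h or 24 h. The study's methods give the dose as 300 nM. The study shows JUN on these samples as part of an IRE1α/JNK/c-Jun pathway, so its rise is not an independent result here. The question for the other subunits was how far each of them responded, and which subunits made up the AP-1 transcripts before and after treatment.

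AP-1 is a dimer of basic leucine zipper (bZIP) proteins. JUN proteins can pair with each other or with FOS proteins, whereas FOS proteins need a JUN partner, and the dimer binds short palindromic DNA motifs in the promoters and enhancers of stress, growth and matrix-remodelling genes. JNK phosphorylates c-Jun, the product of JUN, and so raises its activity, while ERK and p38 signals act on FOS transcription through serum response factor and its partners. JUN and FOS are immediate-early genes, whose transcription can rise within minutes of a signal without new protein synthesis. FOSL1, which encodes FRA-1, is known for high expression in invasive and mesenchymal tumour cells, and FOS overexpression in mice gives bone tumours.

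The promoters of these genes show how close to the start the motifs for AP-1 and the related CREB/ATF factors lie, and they are shown for that reason. Promoter sequence was matched for 6 of the 7 members in the RefSeq table of GRCh38.p14, without FOSL1. The 100 bases before the start of each gene are printed 5′ to 3′ on the gene's strand, with matches to a searched motif in capitals.
JUN: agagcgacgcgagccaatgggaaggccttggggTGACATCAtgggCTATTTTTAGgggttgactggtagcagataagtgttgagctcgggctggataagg
JUNB: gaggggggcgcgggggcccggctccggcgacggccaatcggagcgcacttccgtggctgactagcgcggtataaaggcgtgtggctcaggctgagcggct
JUND: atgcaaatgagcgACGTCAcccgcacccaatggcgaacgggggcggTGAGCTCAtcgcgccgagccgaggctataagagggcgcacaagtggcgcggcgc
FOS: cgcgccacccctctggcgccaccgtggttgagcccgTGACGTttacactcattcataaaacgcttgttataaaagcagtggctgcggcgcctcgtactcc
FOSB: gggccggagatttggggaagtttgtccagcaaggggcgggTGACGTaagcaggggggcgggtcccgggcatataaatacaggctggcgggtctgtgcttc
FOSL2: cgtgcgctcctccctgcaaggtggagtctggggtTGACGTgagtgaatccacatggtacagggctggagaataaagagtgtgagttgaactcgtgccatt

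These stretches lie at chr1:58784048-58784147 (minus strand) for JUN, chr19:12791386-12791485 (plus) for JUNB, chr19:18281623-18281722 (minus) for JUND, chr14:75278728-75278827 (plus) for FOS, chr19:45467896-45467995 (plus) for FOSB and chr2:28392758-28392857 (plus) for FOSL2. The search covered both strands of 300 bases, from 250 before the start to 50 after it. The letters searched were TGANTCA, the AP-1 motif, TGANNTCA, its 8-letter relative, TGACGT, the core of the CREB/ATF motif, TGATGNAA, a motif of C/EBP and ATF dimers, and the MEF2 and CArG motifs by name. Counting the first base before the start as -1, JUN held TGACATCA from -67 and a MEF2 match from -55. FOS held TGACGT from -64, FOSB from -60 and FOSL2 from -66. JUND held 3 matches: TGACGTCA from -200, where the core and the 8-letter motif overlap, the core on the other strand from -87, and TGAGCTCA from -54. FOSL2 also held TGACTCA from position 5 of the transcribed part. No motif of the search matched in the JUNB window, and TGATGNAA and CArG matched in none of the 6 windows, which says only that these letters are not in this stretch. Of 35116 promoters of the same length, 7.98% held TGACGT, 11.5% TGANNTCA, 7.71% TGANTCA, 2.99% a MEF2 match, 3.62% TGATGNAA and 1.29% a CArG match. The matches are a description of sequence, and binding was not measured.

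**Figure D1:**
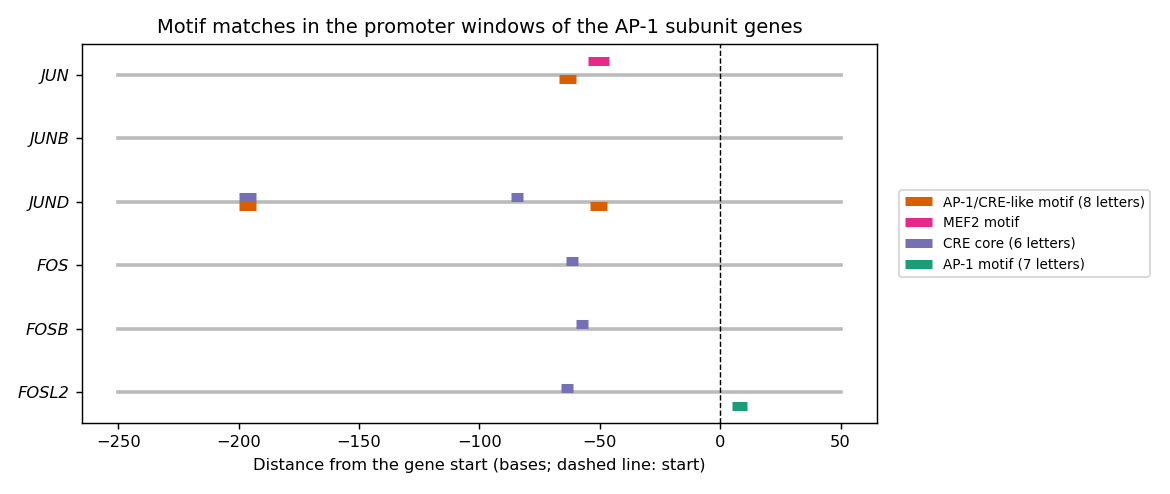
Motif matches in the promoter windows of 6 AP-1 subunit genes. The horizontal axis is the distance from the gene start in bases (dashed line: start), each grey line is the window of a gene and each bar is a match. FOS, FOSB and FOSL2 have a TGACGT match from -64, -60 and -66, and JUN has a match of the 8-letter motif from -67. JUND has matches from -200, -87 and -54, and JUNB has none.

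Libraries held between 30810614 and 31947656 counts on genes. Read pairs on no annotated gene were 6.66 to 8.14% of a library at 6 h and 2.73 to 3.67% at 24 h, so the times also differ in the make-up of their libraries, which cannot be told apart from time itself. Each treatment was therefore compared only with DMSO of its own time. The labels do not say whether replicates came from separate cultures, while the study's methods speak of independent experiments in general, and the p-values measure the spread between these libraries. In bulk RNA, more transcripts per cell and more cells that carry them cannot be told apart. Among 10 osteoblast and mesenchymal markers, VIM (3338 to 5891 CPM), COL1A1 (143 to 566), SPARC (91.7 to 615) and RUNX2 (20.7 to 42.5) were clearly present, while SP7, ALPL, COL1A2, BGLAP and IBSP were at or near 0. The summed mesenchymal markers, of which VIM made up most, were lower under NXP800, 4252 to 4404 against 5078 to 5275 CPM at 6 h and 3805 to 4652 against 5944 to 6789 CPM at 24 h. RUNX2, the osteoblast transcription factor of that list, rose instead (log2 0.71, adjusted p = 4.08e-05 at 6 h, and 0.36, adjusted p = 0.00879 at 24 h, edgeR). The 4 epithelial markers summed to 5.62 to 6.49 CPM in DMSO and 6.26 to 7.07 with NXP800 at 6 h, and to 5.75 to 5.91 and 10.1 to 10.2 at 24 h, where EPCAM rose (0.81, adjusted p = 4.85e-06). That sum was nearly all EPCAM, since CDH1, KRT5 and KRT14 were at most 0.0673 CPM in any library. The 3 endothelial markers summed to 1.25 to 1.83 CPM in DMSO and 0.522 to 0.887 with NXP800 at 6 h, and to 1.00 to 1.18 and 0.264 to 0.542 at 24 h, and VWF among them fell at both times (-1.33, adjusted p = 0.00206, and -2.07, adjusted p = 0.000295). VWF had low counts, between 2 and 29 per library. The 4 blood markers summed to at most 0.184 CPM. The part of these lists in the AP-1 results was not tested.

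NXP800 raised most AP-1 subunit transcripts. At 6 h 6 of the 7 members rose and none fell, and at 24 h 5 rose and none fell. These calls are from edgeR's quasi-likelihood test without the replicate pairing, at a Benjamini-Hochberg adjusted p below 0.05. This threshold called many genes in these data: 52.8% of all tested genes at 6 h, 25.0% of them as higher, and 56.0% at 24 h, 27.5% as higher; 27.8% and 28.6% were called lower. All 6 members that rose at 6 h had replicates that did not overlap with DMSO, which held upward for 29.3% of tested genes (29.0% at 24 h). The 4 members JUN, JUNB, FOSB and FOSL2 passed the test with more than a 2-fold rise at 6 h, as did 6.02% of all genes, and FOSB alone did at 24 h, against 6.73%. The members had a median of 1.03 (6 h) and 0.62 (24 h) on the log2 fold scale, beside -0.05 and -0.00 over all tested genes. JUN, JUNB, JUND, FOSB and FOSL2 rose at both times, as did 16.5% of tested genes.

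JUN encodes c-Jun, the substrate after which the kinase JNK is named, and lies at chr1:58780791-58784047. Its level was 154, 120 and 130 CPM (counts scaled to a common library total, with TMM factors) in the DMSO libraries at 6 h, and 403, 273 and 248 CPM with NXP800. At 24 h it was 114, 106 and 124 CPM in DMSO and 164, 252 and 214 CPM with NXP800. Every treated library stood above every control of its time, and the treated libraries were also the more spread out: replicate 1 was the highest at 6 h and the lowest at 24 h. The rise was 2.29-fold at 6 h (log2 fold change 1.19, SE 0.16, edgeR's adjusted p = 1.47e-05) and 1.84-fold at 24 h (0.88, SE 0.16, adjusted p = 0.000256). The response at 24 h was 0.32 lower on the log2 scale than at 6 h, which did not pass the test (log2 difference -0.32, adjusted p = 0.339). With a library left out that difference lay between -0.48 and -0.08, the latter without NXP800 replicate 1 of 6 h.

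JUNB encodes a subunit that is a weaker activator than c-Jun at many AP-1 sites and can oppose it. It lies at chr19:12791486-12793315, and 14.2% of its exon bases are also exon of HOOK2 on the opposite strand. JUNB read 28.8, 28.0 and 31.0 CPM in DMSO and 66.3, 62.3 and 51.4 CPM with NXP800 at 6 h, groups far apart. At 24 h the DMSO libraries read 34.5, 29.1 and 31.0 CPM and the NXP800 libraries 43.4, 34.5 and 37.0 CPM, so the groups met at 34.5 CPM. The rise was 2.05-fold at 6 h (log2 1.03, SE 0.10, adjusted p = 4.79e-07) and 1.21-fold at 24 h (log2 0.28, SE 0.10, adjusted p = 0.0293). The call at 24 h was lost without DMSO replicate 2 (log2 0.22), DMSO replicate 3 (0.27, adjusted p = 0.0753) or NXP800 replicate 1 (0.18, adjusted p = 0.163) of that time.

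JUND encodes the subunit that is present in most resting cells and is held in check by menin. It lies at chr19:18279694-18281622. In DMSO at 6 h JUND read 21.4, 22.8 and 20.5 CPM, and with NXP800 39.5, 35.0 and 27.1 CPM. At 24 h its values were 32.9, 37.8 and 45.8 CPM in DMSO and 55.6, 72.5 and 81.4 CPM with NXP800. The groups did not overlap at either time, although the 24 h DMSO libraries reached the range of the 6 h NXP800 libraries. The rise was 1.57-fold at 6 h (log2 0.65, SE 0.15, adjusted p = 0.00166) and 1.80-fold at 24 h (log2 0.85, SE 0.14, adjusted p = 0.000107). JUND was the JUN gene whose fitted rise was larger at 24 h, but the difference of 0.20 on the log2 scale did not pass the test (adjusted p = 0.528).

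FOS, the classic serum-induced partner of c-Jun, was scarce in these cells. It lies at chr14:75278828-75282230, and its raw counts were between 35 and 139 per library. Its level was 2.38, 1.10 and 1.79 CPM in DMSO and 4.27, 1.19 and 2.09 CPM with NXP800 at 6 h. At 24 h it was 1.84, 3.43 and 1.55 CPM in DMSO and 1.49, 2.66 and 1.18 CPM with NXP800. Groups overlapped at both times, and at each time the same replicate number was highest in DMSO and in NXP800. Without the pairing FOS did not pass edgeR's test at 6 h (log2 0.52, 95% interval -0.37 to 1.41, adjusted p = 0.319) or at 24 h (-0.35, -1.26 to 0.56, adjusted p = 0.506). When no filter on low counts was applied, FOS passed that test at 6 h without the pairing (0.52, SE 0.21, adjusted p = 0.0403). Within a replicate number the ratio of NXP800 to DMSO was 1.79, 1.08 and 1.17 at 6 h and 0.81, 0.78 and 0.76 at 24 h. With the replicate number as a block the 6 h value passed the test (log2 0.48, SE 0.17, adjusted p = 0.0214), the 24 h value did not (-0.35, SE 0.18, adjusted p = 0.0862), and the difference of the 2 responses did (-0.83, SE 0.24, adjusted p = 0.0118).

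FOSB encodes a FOS protein whose splice variants include the long-lived ΔFosB. It lies at chr19:45467996-45475179, and per length its mean was the lowest of the members in every group. FOSB read 1.01, 0.757 and 1.34 CPM in DMSO and 2.89, 2.14 and 2.00 CPM with NXP800 at 6 h, from 24 to 44 and from 65 to 94 counts. At 24 h it read 0.836, 0.437 and 0.721 CPM in DMSO and 1.52, 2.19 and 1.69 CPM with NXP800. The groups stood apart at both times. FOSB had the highest fitted fold of the members at 24 h (log2 1.43, SE 0.28, adjusted p = 0.000398), after a 2.25-fold rise at 6 h (log2 1.17, SE 0.25, adjusted p = 0.00103). Its intervals were wide, 0.84 to 2.03 at 24 h and 0.63 to 1.71 at 6 h on the log2 scale, and took in the fitted values of JUN and of FOSL2 at 6 h and of JUN and of JUND at 24 h.

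FOSL1, at chr11:65892049-65900545, was the most abundant member and among the least changed. It measured 392, 352 and 401 CPM in DMSO at 6 h and 516, 457 and 481 CPM with NXP800. At 24 h it measured 387, 302 and 320 CPM in DMSO and 411, 372 and 346 CPM with NXP800. The groups were apart at 6 h and overlapped at 24 h, where DMSO replicate 1 lay above 2 of the 3 NXP800 libraries. FOSL1 rose 1.27-fold at 6 h (log2 0.34, SE 0.092, adjusted p = 0.00487) and did not pass the test at 24 h (log2 0.16, 95% interval -0.03 to 0.36, adjusted p = 0.144). At 24 h it did pass with library totals as the only scaling (0.25, adjusted p = 0.0251), with the replicate block (0.17, adjusted p = 0.00987) and without DMSO replicate 1 (0.27, adjusted p = 0.0151).

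FOSL2, at chr2:28392858-28417317, encodes FRA-2, a FOS protein with a role in osteoblast differentiation. Its level was 52.6, 45.9 and 53.3 CPM in DMSO and 113, 113 and 88.7 CPM with NXP800 at 6 h. At 24 h it was 57.7, 50.0 and 53.9 CPM in DMSO and 76.4, 88.2 and 84.2 CPM with NXP800. Replicates were close to each other and the groups did not overlap at either time. The rise was 2.07-fold at 6 h (log2 1.05, SE 0.095, adjusted p = 1.69e-07) and 1.54-fold at 24 h (log2 0.62, SE 0.095, adjusted p = 3.60e-05).

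**Figure D2:**
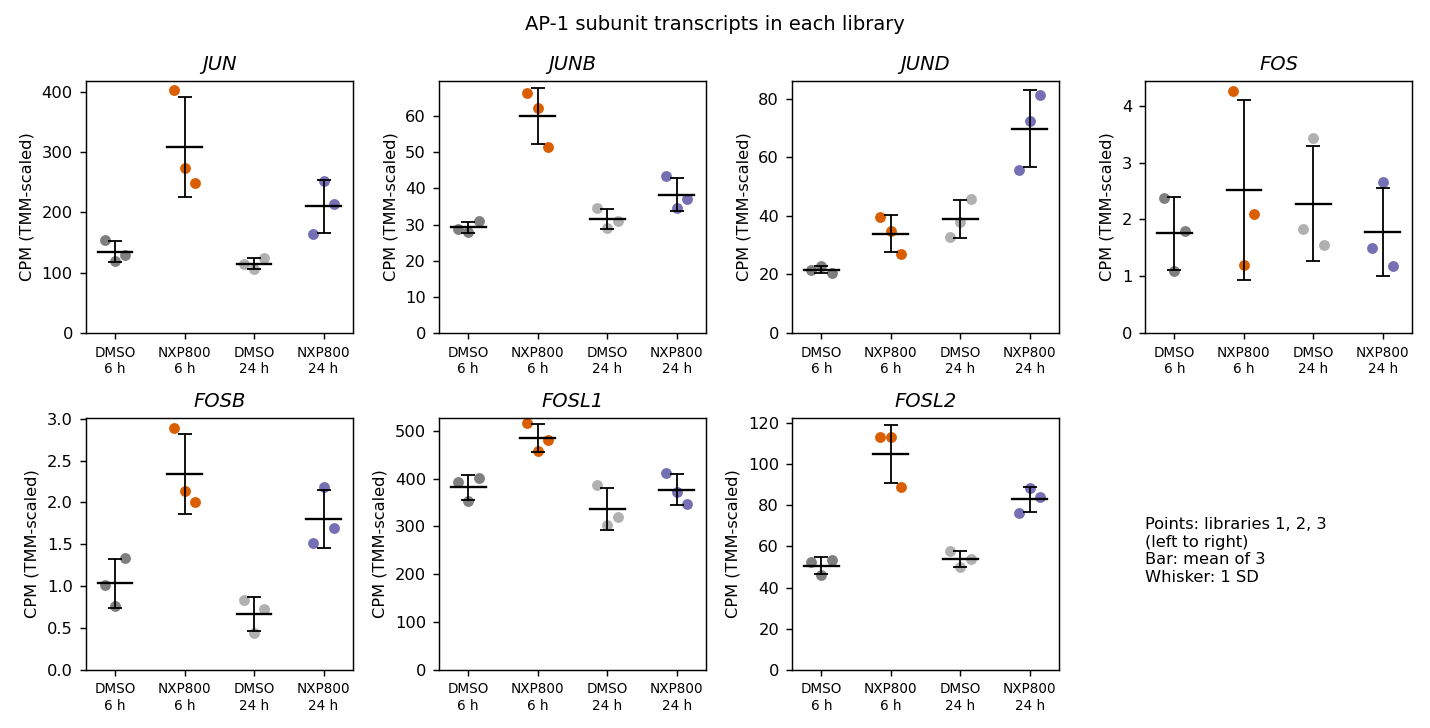
Level of the 7 AP-1 subunit transcripts in each library, in TMM-scaled CPM on a linear axis from 0, by treatment and time. Points are the 3 libraries of a group from replicate 1 to 3, the bar is their mean and the whisker 1 SD; the NXP800 points lie above the DMSO points of the same time for JUN, JUND, FOSB and FOSL2 at both times and for JUNB and FOSL1 at 6 h, and those of FOS overlap.

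The comparison of the 2 responses asked which rises differed between 6 h and 24 h. JUNB and FOSL2 were the members whose response was smaller at 24 h, by 0.75 (95% interval -1.06 to -0.45, adjusted p = 0.00131) and by 0.43 (-0.71 to -0.15, adjusted p = 0.0262) on the log2 scale (log2 differences -0.75 and -0.43). Over all genes this test called 25.8%, and 13.8% had a lower response at 24 h. The JUNB difference passed under every alternative run. That of FOSL2 was lost with library totals as the only scaling (-0.35, adjusted p = 0.0821) and without any of DMSO replicate 2, NXP800 replicate 1 or NXP800 replicate 2 of 6 h, or replicate 1 of either group of 24 h, with adjusted p between 0.0613 and 0.0747. The differences of FOSB (0.26, adjusted p = 0.659), FOSL1 (-0.18, adjusted p = 0.335) and FOS (-0.87, adjusted p = 0.318) did not pass in the model without the block. JUN and FOS both passed when no filter on low counts was applied (-0.30, adjusted p = 0.0348, and -0.85, adjusted p = 0.0285).

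**Figure D3:**
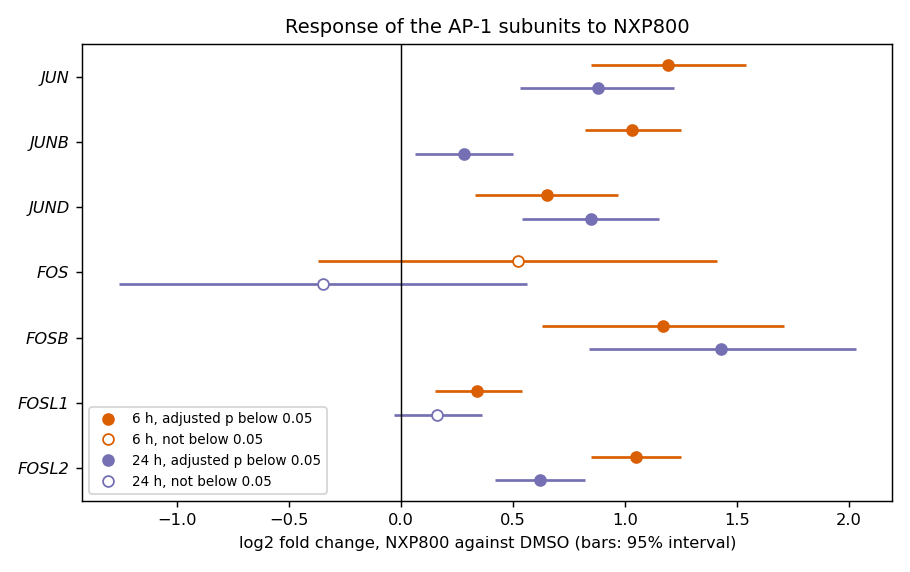
Log2 fold change of NXP800 against DMSO for each AP-1 subunit at 6 h (orange) and 24 h (purple), from edgeR, with 95% intervals; filled points passed an adjusted p of 0.05. The value of JUNB went from 1.03 to 0.28 and that of FOSL2 from 1.05 to 0.62 between the times, and the intervals of FOS cross 0 at both.

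Levels of different members were compared per length, as RPKM, the CPM divided by the kilobases of annotated exon. The order in both 6 h groups was FOSL1, JUN, JUNB, JUND, FOSL2, FOS and FOSB, and at 24 h JUND stood above JUNB. In DMSO at 6 h FOSL1 was at 202 ± 13.9 RPKM, JUN at 37.1 ± 4.76, JUNB at 16 ± 0.843, JUND at 11.2 ± 0.583, FOSL2 at 7.07 ± 0.567, FOS at 0.551 ± 0.2 and FOSB at 0.186 ± 0.0523 (SD, n = 3). Neighbours in the order overlapped between replicates for JUND and JUNB in DMSO at 24 h, for JUND and FOSL2 with NXP800 at 6 h, and for FOS and FOSB with NXP800 at both times. FOS and FOSB, the members best known as rapidly induced FOS genes, thus stayed far below FOSL1 in all 12 libraries. The same order was found with the longest transcript as the length.

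The members summed to 274 ± 18.1 RPKM in DMSO and 408 ± 44.3 with NXP800 at 6 h, and to 255 ± 24.3 and 327 ± 9.75 at 24 h (SD, n = 3). The treated libraries were above the controls at both times, 379 to 459 against 254 to 285 RPKM and 317 to 336 against 233 to 281 RPKM, a ratio of 1.49 and 1.28 (exact permutation test, two-sided, p = 0.1 at each time, the smallest that 3 against 3 allows). On the RPKM scale, which is relative to each library, the summed rise at 6 h was 40.7% FOSL1, 35.9% JUN and 12.6% JUNB. At 24 h it was 36.9% JUN, 29.7% FOSL1 and 22.5% JUND. The split depends on the division by length. In CPM the mean of JUN went from 135 to 308 at 6 h, a larger difference than that of FOSL1, from 382 to 485. FOSL1 did not pass its own test at 24 h, so its portion of the 24 h rise is a difference that was not called.

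In every treated library FOSL1 made up less of the sum, and JUN more, than in any control of the same time. FOSL1 made up 73.7% ± 0.978 in DMSO and 63.2% ± 3.89 with NXP800 at 6 h, and 69.6% ± 3.01 and 61% ± 4.89 at 24 h (SD, n = 3). JUN went from 13.5% ± 1.18 to 20.6% ± 3.23 at 6 h and from 12.4% ± 1.21 to 17.7% ± 3.5 at 24 h. The 3 JUN genes together were 23.4% ± 1 and 32.9% ± 3.71 at 6 h, and 27.1% ± 2.92 and 35.2% ± 4.61 at 24 h, with no overlap between the groups (exact permutation p = 0.1 for each of these shares, the smallest possible). The JUNB share was 5.84% in DMSO and 8.04% with NXP800 at 6 h (exact p = 0.1) and 6.75% and 6.41% at 24 h (exact p = 0.7). The JUND share overlapped between the groups at 6 h (4.1% and 4.29%, exact p = 0.8) and at 24 h (7.96% and 11.1%, exact p = 0.2). At 6 h the direction for JUND turned when shares were taken from raw counts, without division by length (-0.105 points in place of 0.194). Shares of transcripts say nothing of protein, phosphorylation or the dimers formed.

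**Figure D4:**
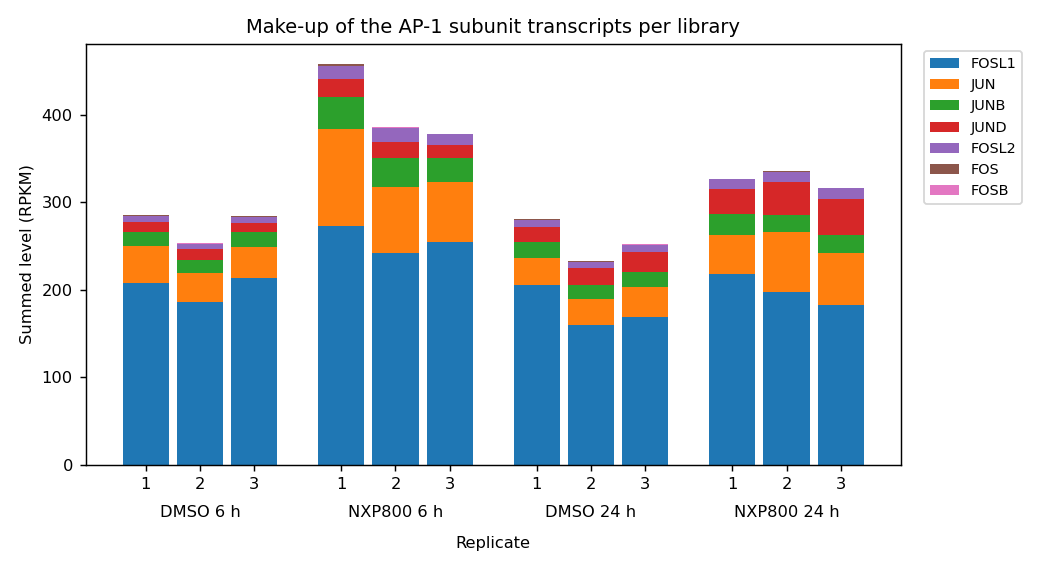
Summed level of the 7 AP-1 subunit transcripts in each library, in RPKM on a linear axis from 0, with each member as a segment of the bar. FOSL1 is the largest segment in all 12 libraries, and the JUN segment is taller in every NXP800 library than in any DMSO library of the same time.

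Of 19 genes of JNK and the other MAP kinase cascades upstream of AP-1, 4 rose and 8 fell at 6 h, and 5 rose and 10 fell at 24 h. Over all tested genes 25.0% were called higher and 27.8% lower at 6 h, and 27.5% and 28.6% at 24 h. This list and those below were chosen with earlier results of these data known. Their counts beside these shares are therefore a description, not a comparison with genes picked blind. The medians of the list's log2 fold changes were -0.06 and -0.17. Its 8 falls at 6 h became 5 when DMSO replicate 2 or 3 or NXP800 replicate 1 or 3 of that time was left out, and its 5 rises at 24 h became 3 without DMSO replicate 1 of that time. ERN1, which encodes the endoplasmic reticulum stress sensor IRE1α, went from 17.1 ± 1.25 CPM in DMSO to 104 ± 5.73 with NXP800 at 6 h (SD, n = 3). That rise was 6.10-fold (log2 2.61, SE 0.10, adjusted p = 3.49e-11), and it was 3.10-fold at 24 h (log2 1.63, SE 0.10, adjusted p = 1.71e-09). MAPK8, which encodes JNK1, rose 1.61-fold at 6 h (log2 0.68, adjusted p = 1.67e-05). At 24 h MAPK8 rose 1.19-fold (0.25, adjusted p = 0.0350) with overlapping replicates, a call lost when any DMSO library or NXP800 replicate 1 or 2 of that time was left out (adjusted p from 0.0587 to 0.108). MAPK9, which encodes JNK2, was lower at both times (-0.19, adjusted p = 0.0400, and -0.30, adjusted p = 0.00230). The 6 h call was lost with DESeq2's size factors (-0.17, adjusted p = 0.0553), its Wald test (adjusted p = 0.0672) and library totals only (adjusted p = 0.0927). It was also lost without the filter (adjusted p = 0.0591) and in the 6 libraries of that time alone (adjusted p = 0.0711). In 6 of the runs with a library left out it was lost too (adjusted p from 0.0569 to 0.160). ERN1, MAPK8 and MAPK9 are genes that the study shows on these samples, so their direction is not independent evidence.

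MAP3K5, the ASK1 kinase upstream of JNK and p38, and RPS6KA1, the RSK1 kinase downstream of ERK, were the largest falls of these cascades at both times. MAP3K5 fell from 15.1 ± 1.98 to 6.63 ± 0.231 CPM at 6 h (log2 -1.19, adjusted p = 2.60e-07) and from 12.1 ± 1.28 to 5.6 ± 0.0508 CPM at 24 h (-1.12, adjusted p = 5.69e-07). RPS6KA1 fell by 1.20 in log2 terms at 6 h (adjusted p = 9.00e-08) and by 0.98 at 24 h (adjusted p = 4.03e-07). MAP2K7, which activates JNK, rose 1.19-fold at 24 h (log2 0.26, adjusted p = 0.00222).

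Of 10 genes of factors that act on the JUN and FOS promoters, 6 rose and 2 fell at 6 h, and 5 rose and 2 fell at 24 h. Among all tested genes 25.0% were called higher and 27.8% lower at 6 h, and 27.5% and 28.6% at 24 h. The 2 falls of the list at 6 h became 1 without DMSO replicate 1 or NXP800 replicate 2 of that time. MEF2A, a factor that binds the MEF2 motif of the JUN promoter shown above, rose 1.63-fold at 6 h (log2 0.71, adjusted p = 1.63e-06) and 1.71-fold at 24 h (0.78, adjusted p = 6.48e-07). MEF2D rose as well (0.43 at 24 h, adjusted p = 0.000228), and MEF2C fell (-0.64, adjusted p = 0.000510, and -1.16, adjusted p = 1.75e-06). The MEF2 genes thus did not move together. ELK3, a ternary complex factor that partners SRF, rose at 6 h (0.67, adjusted p = 2.39e-07) and not at 24 h (0.04, adjusted p = 0.568). SRF itself was lower at 6 h (-0.23, adjusted p = 0.0112), a call lost without DMSO replicate 1 or NXP800 replicate 2 of 6 h (adjusted p = 0.0673 and 0.0527). STAT3 fell at 24 h, from 79.2 ± 10.1 to 43.9 ± 5.59 CPM (-0.85, adjusted p = 3.12e-06).

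Most of the listed bZIP genes whose products can pair with AP-1 subunits rose, in a list chosen with earlier results known. Of 15 such genes 13 were tested, and 11 rose and none fell at either time, with medians of 0.86 (6 h) and 0.73 (24 h) on the log2 fold scale. For all tested genes the medians were -0.05 and -0.00. Of these genes 25.0% were called higher and 27.8% lower at 6 h, and 27.5% and 28.6% at 24 h. ATF3, a stress-induced partner of c-Jun, went from 1.65 ± 0.455 to 21.6 ± 7.74 CPM at 6 h, 13.1-fold (log2 3.71, SE 0.26, adjusted p = 1.17e-08), and rose 5.31-fold at 24 h (log2 2.41, SE 0.27, adjusted p = 1.17e-06). MAFF, a small MAF protein that lacks an activation domain, rose 5.23-fold at 6 h (2.39, adjusted p = 2.45e-10). MAF rose 4.84-fold at 24 h (2.28, adjusted p = 4.16e-05) from 4 to 12 counts per library in DMSO. The list also holds ATF4, which the study shows on these samples.

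Most of the listed genes that restrain AP-1 rose beside it. Of 17 genes for MAP kinase phosphatases, ubiquitin ligases, mRNA-destabilising proteins and menin, 16 were tested: 10 rose and 3 fell at 6 h, and 11 rose and 2 fell at 24 h. The shares over all tested genes were 25.0% higher and 27.8% lower at 6 h, and 27.5% and 28.6% at 24 h. DUSP1, a phosphatase of JNK and p38, went from 10.6 ± 1.63 to 52.6 ± 14.8 CPM at 6 h (4.94-fold, log2 2.30, SE 0.19, adjusted p = 6.22e-08). DUSP8 rose 4.77-fold at 6 h (2.25, adjusted p = 3.22e-05) and 4.99-fold at 24 h (2.32, adjusted p = 2.03e-05), from 7 to 19 counts per DMSO library, and DUSP10 rose 3.25-fold at 24 h (1.70, adjusted p = 5.82e-06); both act on JNK and p38. Falls were seen for DUSP4, a nuclear MAP kinase phosphatase, and at 24 h for DUSP6, which prefers ERK. DUSP4 fell by 0.35 at 6 h (adjusted p = 0.00121) and by 0.61 at 24 h (adjusted p = 6.88e-06), and DUSP6 fell by 0.46 at 24 h (adjusted p = 0.000671) after a rise of 0.72 at 6 h (adjusted p = 9.19e-06). ZFP36L2, an mRNA-destabilising protein, fell by 0.54 at 6 h (adjusted p = 4.49e-06).

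Other immediate-early genes responded at 6 h more often than at 24 h. Of 24 such genes 23 were tested, 14 rose and 3 fell at 6 h, and 8 rose and 4 fell at 24 h. All tested genes together had 25.0% called higher and 27.8% lower at 6 h, and 27.5% and 28.6% at 24 h. The 3 falls at 6 h became 1 without DMSO replicate 1 or NXP800 replicate 2 of that time, and 5 with the replicate block. The test of the difference called 11 of the 23 with a lower response at 24 h and 1 with a higher one, beside 13.8% of all tested genes called lower, and their median difference was -0.72 against -0.00 over all genes. KLF4 went from 15.1 ± 1.27 to 91.3 ± 15.2 CPM at 6 h (6.04-fold, log2 2.59, adjusted p = 1.05e-10) and rose 4.01-fold at 24 h (2.00, adjusted p = 1.06e-09). CCN2, a matricellular gene that YAP and SRF drive, fell at both times (-1.05, adjusted p = 8.04e-05, and -1.84, adjusted p = 2.18e-07). EGR3 fell at 24 h (-0.85, adjusted p = 0.0261), a call lost without replicate 1 of either 24 h group (adjusted p = 0.102 and 0.114), and KLF2 fell at 6 h (-0.39, adjusted p = 0.0466), a call lost with DESeq2's size factors (adjusted p = 0.0571) and in 7 of the runs with a library left out (up to 0.204). At 24 h KLF2 fell with replicates that did not overlap (-0.71, adjusted p = 0.000893). ATF3, DUSP1, ZFP36 and SRF stand in this list and in another.

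Known AP-1 target genes rose more often than they fell, with exceptions among matrix and bone genes. Of 24 genes 21 were tested, 13 rose and 2 fell at 6 h, and 11 rose and 4 fell at 24 h, with medians of 0.72 and 0.71. The medians over all tested genes were -0.05 and -0.00. Of all tested genes 25.0% were called higher and 27.8% lower at 6 h, and 27.5% and 28.6% at 24 h. CXCL8, a neutrophil-attracting chemokine, went from 1.71 ± 0.156 to 56.8 ± 15.8 CPM at 6 h (33.1-fold, log2 5.05, SE 0.25, adjusted p = 2.38e-10). MMP10, a secreted protease, had 1 count in each DMSO library and 37 to 39 with NXP800 at 6 h (adjusted p = 9.43e-07), and 0 to 3 against 7 to 19 at 24 h (adjusted p = 0.000767). VEGFA rose 5.79-fold at 24 h, from 70.2 ± 14.1 to 406 ± 84.5 CPM (log2 2.53, adjusted p = 4.56e-10). MMP13, a collagenase of bone and cartilage, fell at 24 h from 3.7 ± 0.613 to 0.476 ± 0.363 CPM (-2.96, SE 0.31, adjusted p = 6.86e-07), and SPP1, which encodes osteopontin, fell at 24 h (-1.29, adjusted p = 0.00130). CCND1, the cyclin of G1 progression, fell at 6 h from 998 ± 73.9 to 705 ± 40.4 CPM (-0.50, adjusted p = 7.62e-05) and TGFB1 fell at 6 h (-0.45, adjusted p = 8.38e-05). BBC3, which encodes the pro-apoptotic protein Puma, is not in this list and is given because the study shows it on these samples. BBC3 rose 5.15-fold at 6 h (2.37, adjusted p = 1.56e-09) and 2.93-fold at 24 h (1.55, adjusted p = 5.79e-08).

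**Figure D5:**
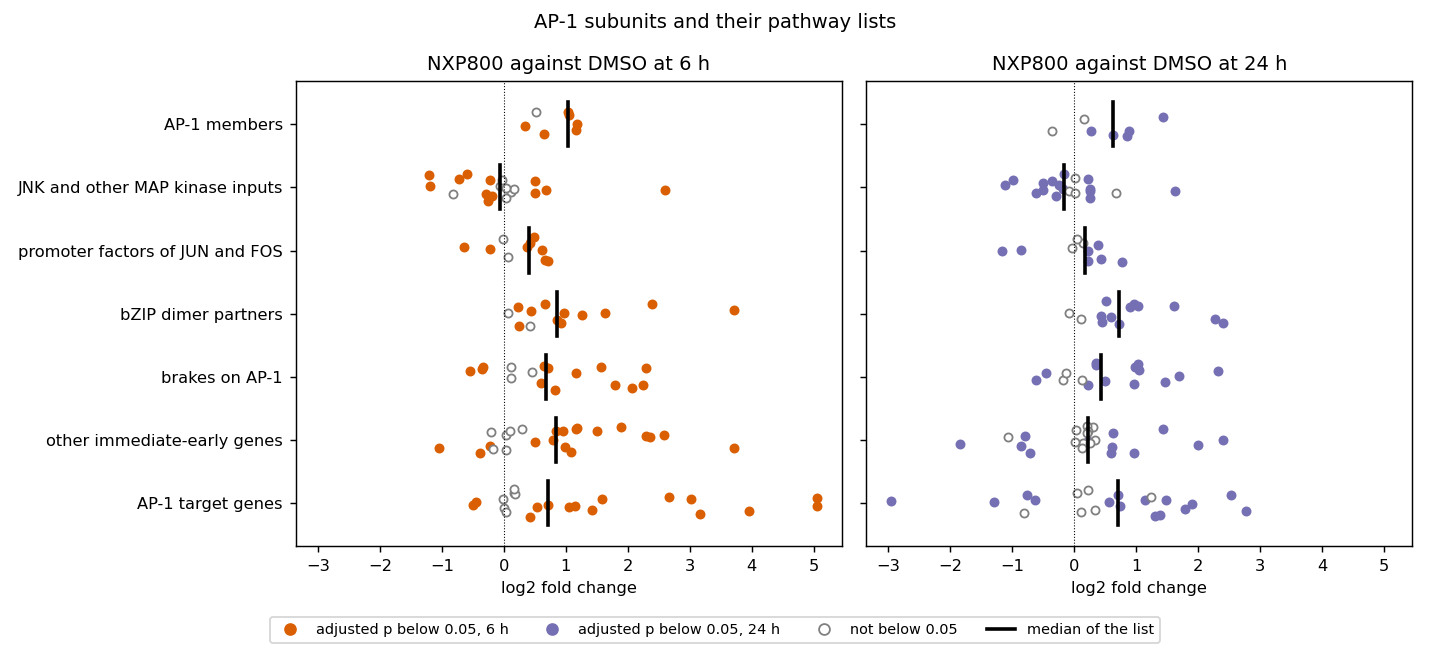
Log2 fold change of NXP800 against DMSO at 6 h (left) and 24 h (right) for the AP-1 subunits and 6 lists of related genes; each point is a gene, filled where its adjusted p was below 0.05, and the black bar is the median of the tested genes of the list. The medians of the subunits are 1.03 and 0.62, those of the MAP kinase inputs -0.06 and -0.17, and those of the bZIP partners 0.86 and 0.73.

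Across the 12 libraries the members fell into patterns that share treatment and time. Pearson's r of log2 CPM was 0.940 between JUN and FOSL2, 0.926 between JUN and FOSB and 0.910 between JUNB and FOSL2. FOS correlated with no other member above 0.264, and JUND with none above 0.460. The genes most like each member, among tested genes whose log2 CPM averaged 1 or more, were ZNF28 (0.975) and FAM86EP (0.974) for JUN, SHISA2 (0.981) and ITPRIP (0.972) for JUNB, and SUPT3H (0.973) and TRIM8 (0.972) for JUND. For the FOS genes they were CEP72 (0.779) and SETD2 (0.778) for FOS, DACT1 (0.968) and ZNF594 (0.967) for FOSB, EFNB2 (0.964) and MAPK1IP1L (0.958) for FOSL1, and ATF3 (0.989) and NFIL3 (0.986) for FOSL2. These values describe 4 groups of 3 libraries, and no test was made of them.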

How the data were processed

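Polyadenylated RNA had been made into strand-specific paired-end libraries. The authors trimmed reads with fastp 0.20.1, aligned them to hg38 with STAR 2.7.5a and made raw counts on RefSeq models (GRCh38.p14) with HTSeq 0.12.4. The strand setting and the overlap mode are not given in the sources used here. From the deposited counts, 5 entries that are not genes were dropped.

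In R 4.3.3, edgeR 4.0.16 filtered genes (filterByExpr), scaled libraries (TMM) and fitted a single quasi-likelihood model of the 4 conditions, with p-values adjusted over all 15979 tested genes. The study's methods name DESeq2, run here as an alternative (1.42.0). The standard error is the log2 fold change over the square root of F. No replicates of a group agreed within sampling noise (chi-square per degree of freedom at least 7.36). At 30810614 counts or more per library, the spread between libraries limits the precision for most genes, and low counts add to it for FOSB. FOS also has low counts, yet its libraries spread widely, from 39 to 139 counts with NXP800 at 6 h. With the replicate number as a block its SE at 6 h was 0.17 in place of 0.42. RPKM used the exon union of GENCODE release 44, whose models can differ from those counted on. The replicate numbers, the only source of the pairing, pair the libraries: deviations from group means correlated across genes with r of 0.159 to 0.329 for same-numbered DMSO and NXP800 libraries and at most 0.0580 for others. The main model leaves this pairing out, since the study's methods name no covariate, and the replicate block was run as an alternative.

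The members and the lists were chosen with earlier results of these data known. Their called counts, beside the shares over all tested genes, are therefore a description. Genes named are the members, ERN1, MAPK8, MAPK9, BBC3, up to 2 of the largest rises and falls of each list at each time, and the 2 genes most correlated with each member. Alternatives were DESeq2's size factors and Wald test, library totals only, no filter, at least 10 counts in every library, the 6 libraries of a time alone, the replicate block, each library left out, and an adjusted p below 0.01. The procedure was also run on simulated counts with the same dispersion for every gene and no pairing of replicates. Changes were set there only in genes above a minimum mean count. That run does not cover genes with a wide spread such as FOS.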

Additional observations from a re-analysis of the deposited data

Results flagged for a closer look

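The difference of the 2 responses, NXP800 against DMSO at 24 h minus the same at 6 h, passed edgeR's quasi-likelihood test for 21 of the named genes, and over all tested genes for 25.8%. Many of the named genes were picked for a large change at 6 h or at 24 h. The count of 21 can therefore not be compared with that share. Values are differences on the log2 scale, 3 libraries in each group.

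Among the AP-1 subunits they were JUNB (-0.75, adjusted p = 0.00131) and FOSL2 (-0.43, adjusted p = 0.0262). Both rose at both times, and less at 24 h. Among the kinase genes ERN1 (-0.97, adjusted p = 0.000117) and MAPK8 (-0.43, adjusted p = 0.0273) also rose less at 24 h. BBC3 did too (-0.81, adjusted p = 0.00535).

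Of the promoter factors, ELK3 (-0.63, adjusted p = 9.96e-05), STAT3 (-0.83, adjusted p = 0.000549) and MEF2C (-0.53, adjusted p = 0.0442) had a lower response at 24 h and SRF a higher one (0.38, adjusted p = 0.0115). Of the bZIP partners, ATF3 (-1.30, adjusted p = 0.0208) and MAFF (-1.43, adjusted p = 1.55e-05) were lower and MAF was higher (1.42, adjusted p = 0.0411).

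Of the genes that restrain AP-1, DUSP1 (-1.34, adjusted p = 0.00159) rose less at 24 h, DUSP6 (-1.18, adjusted p = 1.35e-05) rose at 6 h and fell at 24 h, and ZFP36L2 (0.41, adjusted p = 0.00413) fell at 6 h. Of the other immediate-early genes, KLF4 (-0.59, adjusted p = 0.0138) and CCN2 (-0.79, adjusted p = 0.0238) had lower responses at 24 h. Of the target genes, CXCL8 (-3.26, adjusted p = 0.00375), MMP13 (-2.99, adjusted p = 4.66e-05) and SPP1 (-1.28, adjusted p = 0.0238) were lower at 24 h and CCND1 was higher (0.56, adjusted p = 0.00215).

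The calls for FOSL2, MAF, MEF2C, MAPK8, SPP1, CCN2 and ATF3 were lost in some leave-one-out runs. MAF and SPP1 were also lost with DESeq2's Wald test (adjusted p = 0.0603 and 0.0794). FOSL2, MAPK8 and MEF2C were also lost with library totals only (adjusted p = 0.0821, 0.0783 and 0.0878). The times differ in the make-up of their libraries, and the part of this in these differences was not tested.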

How the results depend on the processing

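The rises of JUN, JUND, FOSB and FOSL2 at both times, and of JUNB and FOSL1 at 6 h, passed the test under every alternative run. The number of members with a different response at 24 h, 2 and both lower, was 1 with library totals only, 4 without a filter, 1 at an adjusted p below 0.01, and 1 to 2 with a library left out. With the replicate block it was 3; the members called at 6 h became 7 and at 24 h 6, by FOS and FOSL1, and no other call of a member changed with the pairing. Over all genes the difference was called for 4129 genes (1924 higher, 2205 lower), for 6284 with the replicate block (2945 and 3339) and for 2236 at an adjusted p below 0.01 (946 and 1290). With library totals only the split was 2463 higher and 1670 lower. FOS, which passed no test without the block and with the filter, ranged from -0.10 to 0.86 at 6 h with a library left out, reversed without NXP800 replicate 1, and from -0.74 to 0.07 at 24 h, reversed without DMSO replicate 2. The share of JUND at 6 h reversed with raw counts (-0.105 points); the cause was not tested. Low counts limit FOSB, and FOS has low counts and a wide spread between libraries of a group. A group of 3 cannot give an exact permutation p below 0.1.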

Other observations

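Within a replicate number the ratio of NXP800 to DMSO, on CPM, was above 1 at 6 h for all 7 AP-1 subunits in all 3 pairs, and at 24 h for all but FOS. The share of all tested genes with such ratios was not computed, so whether these counts are unusual cannot be said. At 6 h it was 1.91 to 2.62 for JUN, 1.66 to 2.30 for JUNB, 1.32 to 1.85 for JUND, 1.49 to 2.86 for FOSB, 1.20 to 1.32 for FOSL1 and 1.66 to 2.46 for FOSL2. In that time point replicate 3 gave the lowest ratio for JUN, JUNB, JUND, FOSB, FOSL1 and FOSL2. At 24 h the ratios were 1.44 to 2.38 for JUN, 1.19 to 1.26 for JUNB, 1.69 to 1.92 for JUND, 1.82 to 5.01 for FOSB, 1.06 to 1.23 for FOSL1 and 1.32 to 1.76 for FOSL2. Replicate 2 gave the highest 24 h ratio for JUN, JUND, FOSB, FOSL1 and FOSL2. Replicate numbers have no order, and the part of a shared culture or handling in these patterns was not tested.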
